A study of Mus musculus with 3 samples.

Results

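The 9 genes examined here govern how thyroid hormone enters a cell, how it is held there and how it is activated or inactivated. They are the transporter genes *Slc16a10*, *Slco1c1*, *Slc7a5* and *Slc7a8*, the deiodinase genes *Dio1*, *Dio2* and *Dio3*, and the genes of the binding proteins mu-crystallin (*Crym*) and transthyretin (*Ttr*). TR binding sites (TRBS) were attributed to a gene when their summit, the position of highest ChIP coverage, lay within the gene body or within 30 kb of the transcription start site (TSS), taken as the 5-prime end of the gene. This rule found 9 TRBS among the 23988 of the series and used 9 of 21938 protein-coding genes. Chromatin occupancy by TRα1 had been mapped with ChIP-seq in striatum from untreated, euthyroid C57BL/6J males aged 8 weeks, after crosslinking with disuccinimidyl glutarate and formaldehyde. All of the mice carried a GS-tagged TRα1 whose expression was restricted to GABAergic neurons, and they contributed 2 ChIP libraries and 1 input library. The tag came from a floxed construct, and the source of the recombinase is not given in the sources used here. No library from untagged mice and none from another thyroid status was analysed here.

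Thyroid hormone circulates mainly as the prohormone thyroxine (T4) and acts mainly as triiodothyronine (T3), which binds the nuclear receptors TRα1 and TRβ. Both forms cross membranes through carriers, and many of these carriers also transport amino acids. Deiodinases then remove iodine. Outer ring deiodination converts T4 to T3, whereas inner ring deiodination yields inactive products. In the brain, T3 is thought to be produced largely in glia by the type 2 enzyme and to be inactivated largely in neurons by the type 3 enzyme. TRα1 binds DNA preferentially as a heterodimer with RXR, on direct repeats of the half-site AGGTCA that are separated by 4 bp (DR4).

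A single peak list covers the series and gives no values by library. For this reason replicates could not be compared, no test over samples was possible, and library depth is unknown here. Each TRBS has a pileup, which is the number of ChIP fragments that cover its summit, and a fold enrichment, which is the ratio of that pileup to the local background. Over all TRBS the median pileup was 21 and the lowest 14, and the median fold enrichment was 7.40. The 95% intervals given after a pileup are exact Poisson intervals, which cover counting error only. Among genes that mark cell types, all 3 GABAergic neuron genes (*Gad1*, *Gad2* and *Slc32a1*) and 5 of 6 striatal projection neuron genes had a TRBS by the same rule, with *Adora2a* as the exception. None of the 4 astrocyte genes (*Aqp4*, *Gfap*, *Slc1a3* and *Aldh1l1*), 1 of 4 brain endothelium genes and 2 of 4 choroid plexus genes had one. Over all protein-coding genes the share with a TRBS was 57.7%, and these short lists were not tested against it. The highest fold enrichment at each projection neuron gene with a TRBS ranged from 5.95 at *Tac1* and 6.97 at *Penk* to 20.1 at *Drd1*, 20.8 at *Drd2* and 42.4 at *Ppp1r1b*. The GABAergic genes ranged from 9.30 at *Slc32a1* to 20.7 at *Gad2*. The values were 6.29 at *Abcb1a* of endothelium and 7.84 at *Kl* and 10.2 at *Folr1* of choroid plexus, within the range of the neuronal genes. *Cldn5*, *Pecam1*, *Slc2a1*, *Kcnj13* and *Otx2* had no TRBS. These counts describe occupancy and not expression, which was not measured in this series.

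A TRBS was found at 5 of the 9 genes, namely *Slc16a10*, *Slc7a5*, *Slc7a8*, *Dio3* and *Ttr*. This was close to the background, as 57.7% of protein-coding genes had at least 1 TRBS by the same rule. *Dio3* and *Slc7a8*, 2 of the 9 genes, had 3 TRBS each. This was also close to the background, as 18.5% of protein-coding genes had at least 3. The other genes with a TRBS had 1 each. In total, the windows searched around the 9 genes spanned 664.281 kb and held 13.5 TRBS per Mb, against 13.3 per Mb in the merged windows of all protein-coding genes. The fold enrichment of the 9 TRBS ranged from 5.44 to 23.1, with a median of 9.26, and 6 of them lay above the median of all TRBS. The 4 TRBS with the highest values lay 8.94 to 27.8 kb upstream of a TSS, at *Dio3* and *Slc7a8*, and each exceeded 2 times the median of all TRBS, as did 15.3% of the whole list. A DR4 match, for which up to 2 of the 12 half-site bases were allowed to differ, was present in 2 of the 9 TRBS, both at *Dio3*, against 17.3% of all TRBS.

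**Figure D1:**
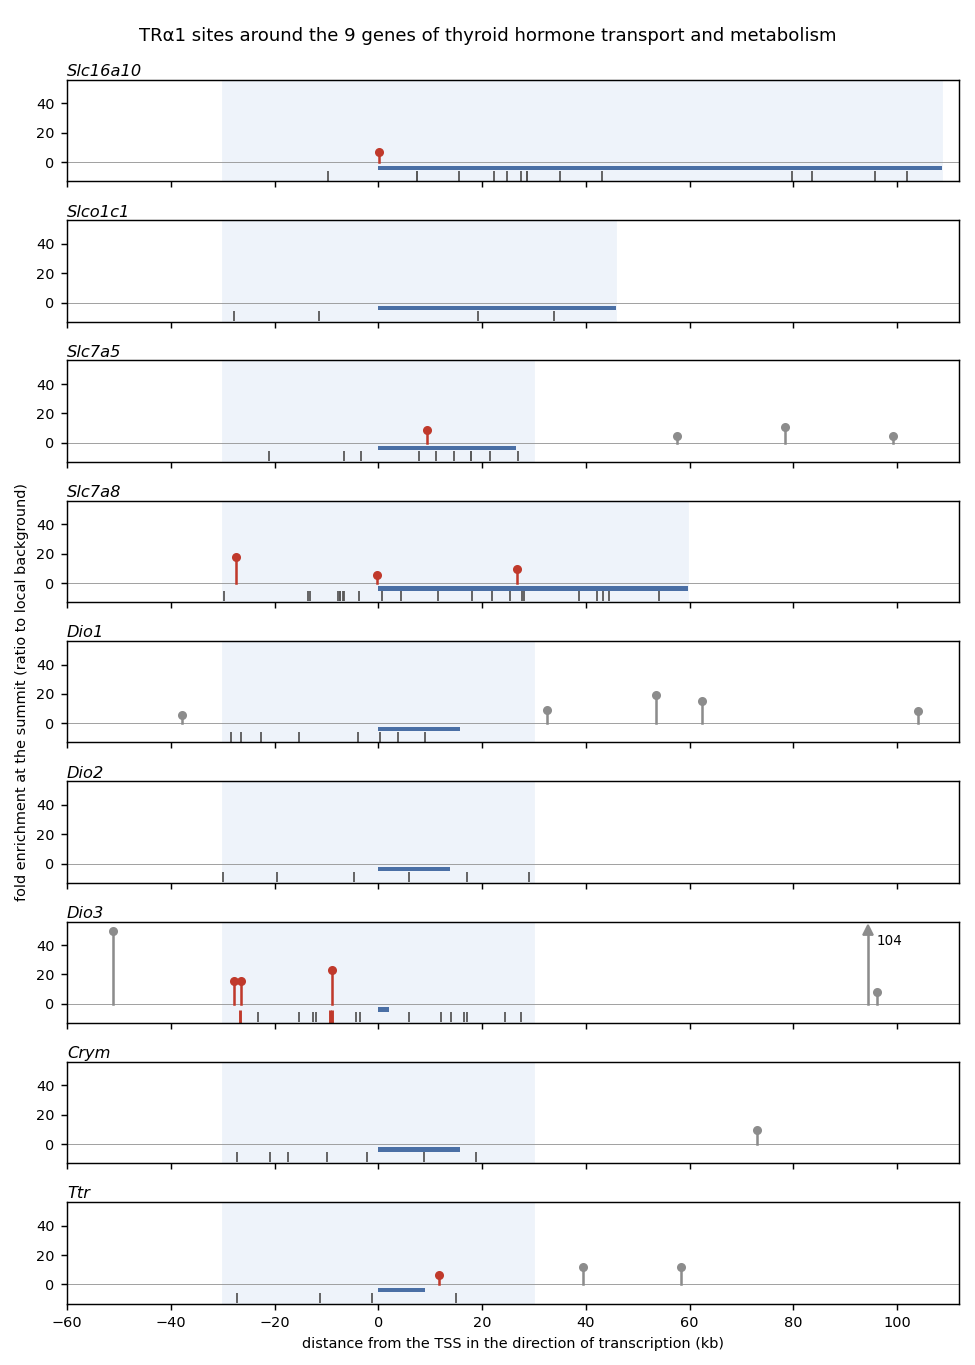
Position and fold enrichment of TRBS around the 9 genes. In each panel the horizontal axis is the distance from the TSS in kb in the direction of transcription, stems give the fold enrichment of TRBS inside (red) and outside (grey) the searched window (shaded), the blue bar is the gene, and ticks mark DR4 matches in the window that lay inside (red) or outside (dark grey) a TRBS. The 3 red stems of *Dio3* reach 15.2 to 23.1, the panels of *Slco1c1*, *Dio1*, *Dio2* and *Crym* hold no red stem, and the arrow beside *Dio3* marks a TRBS that rises beyond the axis, at 104.

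The first group comprised the transporters. *Slc7a8* encodes LAT2, the light chain of a heterodimeric exchanger of neutral amino acids that also moves iodothyronines, and it had the most TRBS of this group. The gene lies at chr14:54722209-54781946 on the minus strand. The strongest of its TRBS, at chr14:54809162-54809747, had its summit 27.4 kb upstream, with a pileup of 46 fragments (33.7 to 61.4) and a fold enrichment of 17.5. A second TRBS, at chr14:54755092-54755509, lay in an intron 26.7 kb downstream of the TSS, with a pileup of 27 fragments (17.8 to 39.3) and a fold enrichment of 9.26. The third, at chr14:54782013-54782310, lay in the promoter, 203 bp before the TSS, and showed a pileup of 19 fragments (11.4 to 29.7) and a fold enrichment of 5.44. Only the far upstream and the promoter TRBS had pileup intervals that did not overlap. The promoter TRBS ranked 21917 among the 23988 by fold enrichment, and it had the highest computed local background of the 9, at 2.67 fragments against a floor of 1.69. The far upstream TRBS was closer to another gene. The TSS of *Rnf212b*, a RING finger gene related to meiotic recombination, lay 4756 bp from its summit on the other side. When each TRBS was given only to the nearest protein-coding TSS, the highest fold enrichment at *Slc7a8* fell from 17.5 to 9.26.

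None of the 3 TRBS at *Slc7a8* had a DR4 match. The sequences on the plus strand of GRCm38, 100 bp to either side of the summit, are shown for the far upstream and the promoter TRBS because they are the strongest and the weakest of the 7 without this element. Capitals mark a match to the AP-1 motif TGANTCA, which starts 8 bp from the summit in the far upstream TRBS. The promoter TRBS has no capitals, as neither a DR4, a complete AGGTCA half-site nor this motif was found there.

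Slc7a8, 27.4 kb upstream, chr14:54809285-54809485: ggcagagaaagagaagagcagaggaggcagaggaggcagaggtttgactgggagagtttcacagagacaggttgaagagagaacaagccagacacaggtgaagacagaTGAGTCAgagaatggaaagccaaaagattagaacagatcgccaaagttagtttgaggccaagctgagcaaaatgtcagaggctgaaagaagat

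Slc7a8, promoter, chr14:54782049-54782249: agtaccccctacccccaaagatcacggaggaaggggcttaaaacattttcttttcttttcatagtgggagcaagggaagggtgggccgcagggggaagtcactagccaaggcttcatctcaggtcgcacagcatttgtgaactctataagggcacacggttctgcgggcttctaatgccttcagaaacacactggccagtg

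*Slc7a5* encodes LAT1, the related light chain that supplies the brain with large neutral amino acids, and it had 1 TRBS. The gene lies at chr8:121881150-121907694 on the minus strand, and the TRBS, at chr8:121898186-121898649, lay in an intron 9.29 kb downstream of the TSS. Its pileup was 23 (14.6 to 34.5) and its fold enrichment 8.93, which ranked 8515 of 23988. The annotated gene *Gm20388*, which spans this whole region on the opposite strand, also contained the summit. No DR4 match was found, but a complete half-site started 58 bp from the summit, and it is in capitals in the sequence of the plus strand.

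Slc7a5, intron, chr8:121898300-121898500: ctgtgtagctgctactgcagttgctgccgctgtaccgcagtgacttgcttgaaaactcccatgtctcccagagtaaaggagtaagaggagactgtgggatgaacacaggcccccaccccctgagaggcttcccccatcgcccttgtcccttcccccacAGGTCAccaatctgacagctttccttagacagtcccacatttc

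*Slc16a10* encodes MCT10, a carrier of aromatic amino acids and iodothyronines. The gene lies at chr10:40033532-40142258 on the minus strand and had 1 TRBS, at chr10:40141703-40142274, with its summit 205 bp downstream of the TSS in an untranslated part of an exon. The pileup was 18 (10.7 to 28.4) and the fold enrichment 7.07, which is below the median of all TRBS. The 201 bases around this summit had a GC content of 76.6% and 30 CpG dinucleotides, against medians of 50.7% and 3 over all TRBS. With a window of 138.727 kb this was the longest region among the 9 genes, and no other TRBS lay in it. Of the 2921 protein-coding genes whose windows were within 1.5 times that length, 73.4% had at least 1 TRBS.

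*Slco1c1* encodes OATP1C1, the T4 transporter of brain capillaries and astrocytes, and it had no TRBS. The gene lies at chr6:141524368-141570177 on the plus strand. The nearest TRBS lay 455.369 kb from its TSS on one side and 456.003 kb on the other, with fold enrichments of 6.69 and 5.58. No listed TRBS thus lay in an interval of 911.372 kb. For 95.8% of protein-coding genes the nearest TRBS was as close or closer, and the median over these genes was 25.2 kb. In this interval 6 peak numbers were missing from the list, from which peaks with a score under 60 had been removed. A gene without a TRBS is thus one without a listed peak, since weaker peaks had been removed from the list, whose lowest pileup was 14.

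Promoter occupancy, defined as a summit within 1 kb of the TSS, was thus found for 2 of the 9 genes, *Slc16a10* and *Slc7a8*, against 23.2% of all protein-coding genes. Both had a fold enrichment below the median of all TRBS, and neither had a score of 200 or more.

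**Figure D2:**
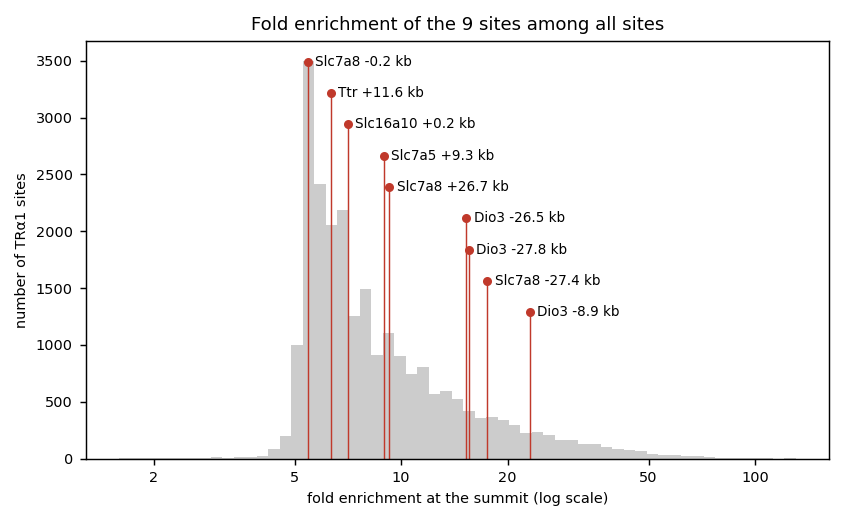
Fold enrichment of the 9 TRBS among all TRBS of the list. Grey bars count the 23988 TRBS (vertical axis) in bins of fold enrichment (horizontal axis, log scale), and each red line with its label marks 1 of the 9, whose height carries no value. The promoter TRBS of *Slc7a8* lies at 5.44 near the lower edge of the distribution, and the 3 TRBS of *Dio3* lie between 15.2 and 23.1 in its upper part.

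The second group comprised the deiodinases, and here occupancy was found at *Dio3* only. *Dio3* encodes the type 3 enzyme, which inactivates T3 and T4. It is an imprinted gene without introns at one end of the *Dlk1*-*Dio3* domain, where it is transcribed mainly from the paternal allele. The gene lies at chr12:110279068-110281097 on the plus strand, with the noncoding gene *Dio3os* on the opposite strand just upstream. All 3 TRBS lay upstream of the TSS and outside any annotated gene, and *Dio3* had the nearest protein-coding TSS in each case. The closest, at chr12:110269701-110270513, had its summit 8.94 kb from the TSS, with a pileup of 61 fragments (46.7 to 78.4) and a fold enrichment of 23.1. It ranked 1581 of 23988 and was the strongest of the 9. Further upstream a pair of TRBS had summits 1226 bp apart. One of them, at chr12:110252212-110252759, lay 26.5 kb upstream with a pileup of 40 fragments (28.6 to 54.5) and a fold enrichment of 15.2. The other, at chr12:110250911-110251540, lay 27.8 kb upstream with a pileup of 41 fragments (29.4 to 55.6) and a fold enrichment of 15.5. These intervals overlapped each other and that of the closest TRBS. The local background was at or close to the floor of 1.69 fragments at all 3. A neighbour within 2 kb was found for 14.6% of all TRBS. At each of the 3, the TSS of a gene that does not encode a protein was nearer than that of *Dio3*. For the TRBS at 8.94 kb it was *Mir1247*, 7997 bp from the summit. For those at 26.5 and 27.8 kb it was *4930425K24Rik*, at 16044 and 14818 bp.

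The sequences of the 3 TRBS at *Dio3* are shown because they hold the only DR4 matches in the 9. Half-sites of DR4 matches are in capitals, with the spacer in lower case, on the plus strand of GRCm38 and 100 bp to either side of the summit. In the closest TRBS the element lies on the minus strand and reads AGGTTGtttgAGGTCA, with a complete downstream half-site and 2 mismatches in the upstream half-site. Its centre lay 27 bp from the summit. At 26.5 kb the element ATGTCAgcccAGGTCT has 1 mismatch in each half-site and lay 57 bp from the summit. A further match in the closest TRBS, AGGTGAagccAGGCCA at chr12:110269776-110269791, lay 348 bp from the summit and is outside the sequence shown. In the third TRBS no DR4 with at most 2 mismatches was found.

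Dio3, 8.94 kb upstream, chr12:110270032-110270232: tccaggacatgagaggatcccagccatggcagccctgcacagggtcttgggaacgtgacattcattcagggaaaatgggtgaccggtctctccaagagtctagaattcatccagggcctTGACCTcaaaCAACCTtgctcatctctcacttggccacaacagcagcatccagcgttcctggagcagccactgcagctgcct

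Dio3, 26.5 kb upstream, chr12:110252436-110252636: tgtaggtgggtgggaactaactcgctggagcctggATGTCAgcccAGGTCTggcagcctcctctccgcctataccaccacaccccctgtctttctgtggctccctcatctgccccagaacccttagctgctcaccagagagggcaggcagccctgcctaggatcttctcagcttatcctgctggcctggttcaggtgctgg

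Dio3, 27.8 kb upstream, chr12:110251210-110251410: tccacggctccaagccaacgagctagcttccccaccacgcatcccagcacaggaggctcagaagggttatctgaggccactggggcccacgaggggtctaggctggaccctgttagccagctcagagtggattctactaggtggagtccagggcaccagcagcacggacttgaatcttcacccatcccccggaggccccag

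Stronger TRBS flanked this window on either side. The next one upstream, 51.1 kb from the TSS at chr12:110227560-110228414, had a pileup of 132 fragments and a fold enrichment of 49.5, and it lay within the noncoding gene *Gm40576*. The next one downstream, 94.5 kb from the TSS at chr12:110372995-110373887, had a pileup of 306 fragments and a fold enrichment of 104, the value ranked 9 in the whole list. Its nearest protein-coding TSS was that of *Ppp2r5c*, which encodes a regulatory subunit of protein phosphatase 2A. Neither of them had a DR4 match. Within 500 kb of the *Dio3* TSS there were 22 TRBS, against a median of 12 over protein-coding genes. This was not particular to *Dio3*, as *Slc7a5* had 26, *Slc7a8* 25 and *Dio1* 16 within that distance. The remaining genes had from 2 at *Slco1c1* to 10 at *Ttr*.

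*Dio1* and *Dio2* had no TRBS in their windows, and their surroundings differed. *Dio1* encodes the type 1 enzyme of liver, kidney and thyroid and lies at chr4:107291465-107307169 on the minus strand. A TRBS lay just outside its window, 32.5 kb downstream of the TSS at chr4:107274454-107274848, with a pileup of 28 fragments and a fold enrichment of 9.09. It had a DR4 match and lay within the neighbouring gene *Hspb11*. A weaker one, with a fold enrichment of 5.95, lay 37.8 kb upstream within *Yipf1*. *Dio2* encodes the type 2 enzyme, which produces T3 from T4 and in the brain is found mainly in astrocytes and tanycytes. The gene lies at chr12:90724552-90738438 on the minus strand, and its nearest TRBS lay 164.653 kb upstream, in the noncoding gene *4930544I03Rik*, with a fold enrichment of 9.25 and a DR4 match. On the other side the first TRBS was 229.893 kb away. For 85.7% of protein-coding genes the nearest TRBS was as close as for *Dio2* or closer, and for *Dio1* this value was 55.0%. On the side of the rule's limit that was included, the most distant summits were those 27.8 kb from *Dio3* and 27.4 kb from *Slc7a8*. On the other side, the closest were those 32.5 and 37.8 kb from *Dio1* and 39.4 kb from *Ttr*.

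The third group comprised the binding proteins. *Crym* encodes mu-crystallin, a cytosolic protein that binds T3 in the presence of NADPH and that is known as a marker of striatal neurons. It lies at chr7:120186380-120202111 on the minus strand and had no TRBS. The nearest one, at chr7:120128875-120129809 within *Zp2*, lay 73.0 kb downstream with a fold enrichment of 9.67, and upstream no TRBS was listed for 378.522 kb. The interval without a listed TRBS around the *Crym* TSS was thus 451.568 kb long, against a median of 151.6 kb over protein-coding genes, and 2 peak numbers were missing from it. *Ttr* encodes transthyretin, the T4 carrier of blood and cerebrospinal fluid, which the choroid plexus secretes. It lies on chromosome 18, from 20665280 to 20674321 on the plus strand. Its 1 TRBS, from 20676749 to 20676996, lay downstream of the end of the gene and 11.6 kb from the TSS, with a pileup of 16 fragments (9.15 to 26.0) and a fold enrichment of 6.32. This was the lowest pileup and the shortest TRBS of the 9, with a length of 248 bp against a median of 422 bp over all TRBS. A stronger TRBS with a fold enrichment of 11.5 and a DR4 match lay 39.4 kb downstream of the *Ttr* TSS, within *B4galt6*.

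**Figure D3:**
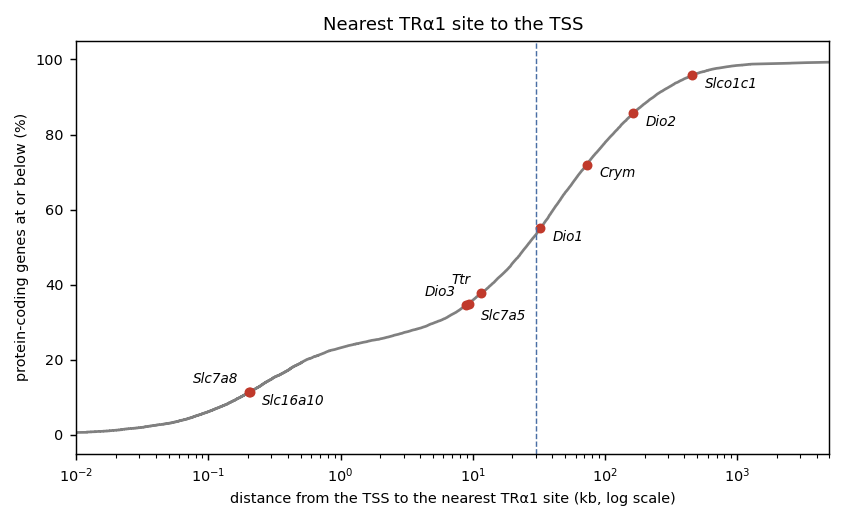
Distance from the TSS to the nearest TRBS. The grey curve gives the percentage of protein-coding genes (vertical axis) whose nearest TRBS lies at or below the distance on the horizontal axis (kb, log scale), red points mark the 9 genes, and the dashed line is at 30 kb. *Slc7a8* and *Slc16a10* lie near 0.2 kb, *Dio1* just beyond the line at 32.5 kb, and *Slco1c1* far to the right at 455.369 kb.

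It was then examined whether DR4 elements were present where no TRBS was found. The motif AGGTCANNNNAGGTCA was searched on both strands with up to 2 mismatches outside the spacer. In the windows of the 9 genes 99 matches were counted, of which 3 lay in a TRBS, all at *Dio3*. In the windows of all protein-coding genes, 2.37% of the matches lay in a TRBS. Every one of the 9 windows held such matches, from 4 at *Slco1c1* and *Ttr* to 24 at *Slc7a8*. The windows ranged from 60.001 to 138.727 kb in length. Overlapping matches in tandem repeats were counted separately, as in an intron of *Slc16a10* (chr10:40113634-40113679) and upstream of *Slc7a8* (chr14:54789320-54789355). None of the 99 matches was free of mismatches and 6 had a single mismatch. These 6 are printed because they are the closest to the consensus. None of them lay in a TRBS. In the windows of all protein-coding genes 5.36% of the matches with 1 mismatch did so, and 6 elements are too few to differ from that share. The 6 elements are written 5′ to 3′ on the strand of the match, with the half-sites in capitals.

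Slco1c1, intron, 19.1 kb downstream of the TSS, chr6:141543481-141543496: AGCTCAtcacAGGTCA

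Slc16a10, intron, 83.5 kb downstream, chr10:40058731-40058746: AGGTCAgcacAGCTCA

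Slc16a10, intron, 79.6 kb downstream, chr10:40062606-40062621: AGGTCAgaagAGGGCA

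Slc7a8, 13.5 kb upstream, chr14:54795414-54795429: AGGTCAgaagAGGGCA

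Slc7a8, 29.8 kb upstream, chr14:54811746-54811761: AGGTCTcagaAGGTCA

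Dio3, 23.2 kb upstream, chr12:110255824-110255839: AGGACAcacgAGGTCA

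The element upstream of *Slc7a8* at 29.8 kb lay 2.37 kb from the nearest summit, and that of *Dio3* at 23.2 kb lay 3.30 kb from it. Both were thus close to a TRBS without being part of it. The element in *Slco1c1* was 436.248 kb away from any summit. At *Crym* and *Dio2*, the 7 and 6 matches all had 2 mismatches.

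Promoter sequences from RefSeq (GRCm38.p6, 300 bp around the start annotated there) were at hand for 6 of the 9 genes, namely *Dio1*, *Dio2*, *Dio3*, *Slc16a10*, *Slc7a8* and *Slco1c1*. That of *Dio2*, chr12:90738989-90739288, lay upstream of the TSS used here and did not contain it. None of the 6 sequences held a DR4 match or a complete AGGTCA half-site, which were found in 3.02 and 16.3% of all 32851 promoters of the table. Other motifs were searched on both strands in the 100 bp to either side of the 9 summits. A complete half-site AGGTCA was found in 2 of the 9, at *Slc7a5* and at the closest TRBS of *Dio3*, where it is part of the DR4. This compares with 17.8% of all TRBS. DR4 itself was found within this distance in 2 of the 9 and in 13.1% of all TRBS. The AP-1 motif was found in 1, at *Slc7a8*, against 11.5%, and the GC box GGGCGG in 1, at *Slc16a10*, against 18.2%. The everted repeat TGACCTNNNNNNAGGTCA (ER6), the inverted repeat AGGTCATGACCT (IR0) and the cAMP response element TGACGTCA were in none of the 9, against 1.33, 1.24 and 0.542% of all TRBS.

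Other genes of thyroid hormone handling were searched by the same rule. Of 9 genes whose products act together with the transporters and deiodinases or control their turnover, 6 had a TRBS. The highest fold enrichments were 19.8 at *Sephs2* and 17.1 at *Eefsec*, both needed for the synthesis of selenoproteins such as the deiodinases, and 19.0 at *Usp33*, a deubiquitinase of the type 2 enzyme. The first of these TRBS lay beyond the end of *Sephs2*, 29.6 kb downstream of its TSS. That of *Eefsec* lay in an intron 170.0 kb downstream, and that of *Usp33* 13.5 kb upstream. *Usp33* had 4 TRBS, including 1 in its promoter. *Slc3a2*, which encodes the heavy chain that LAT1 and LAT2 require, had none, nor did *Wsb1* or *Secisbp2*. Of 11 further transporters and blood carriers, 5 had a TRBS and none had one in its promoter. *Slco3a1* had 6 in a window of 309.362 kb, with a fold enrichment of up to 11.1, followed by 8.55 at *Slc17a4* and 6.64 at *Slco4a1*. No TRBS was found at *Alb*, *Serpina7*, *Slco1a4*, *Slco1b2*, *Slco2b1* or *Slco4c1*. Of the 3 conjugating enzymes in the annotation, *Sult1a1* had 1 TRBS, with a fold enrichment of 34.3 at 26.9 kb from the TSS, and *Sult1b1* and *Ugt1a1* had none. Of 10 genes of hormone synthesis in the thyroid gland, 3 had a TRBS and none had one in its promoter. The highest fold enrichment was 8.93 at *Slc5a5*, and it was 5.47 at *Tshr*. *Tg*, *Duox2*, *Foxe1*, *Iyd*, *Nkx2-1*, *Pax8* and *Slc26a4* had none. All of these counts stand against the 57.7% of protein-coding genes given above.

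**Figure D4:**
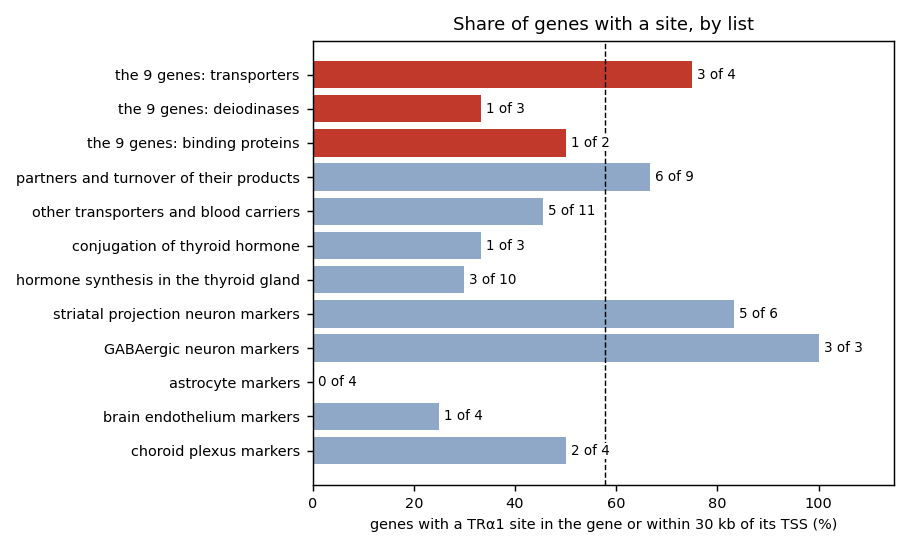
Share of genes with a TRBS by list. Bars give the percentage of annotated genes of each list with a TRBS in the gene or within 30 kb of its TSS, with the count beside each bar, red for the 9 genes by role and blue for other lists, and the dashed line marks the 57.7% of all protein-coding genes. The deiodinases reach 1 of 3 and the transporters 3 of 4, the astrocyte markers stand at 0 of 4 and the GABAergic neuron markers at 3 of 3.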

How the data were processed

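The series comprised 2 TRα1 ChIP libraries and 1 input library of mouse striatum, grouped by their titles. The authors aligned the reads to GRCm38 (mm10) with Bowtie, called peaks with MACS and removed peaks with a score inferior to 60. The processing notes of the submitters name Bowtie2 2.3.2.2 and MACS2 2.1.1.20160309.0. How the ChIP libraries were combined for peak calling is not given in the sources used here. The deposited values are the pileup (a coverage signal in fragments), the fold enrichment (a ratio to the local background, with 1 added to each), the −log10 q value, and a score equal to 10 times −log10 q, cut to a whole number. The −log10 p values were not used. Local background was derived by dividing pileup plus 1 by the fold enrichment and subtracting 1.

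TRBS were attributed with GENCODE vM21 by the summit, without the mitochondrial genes, and sequences were read from GRCm38.p6, whose 21 chromosomes contained all positions in the list. Matches to motifs were counted with at most 2 mismatches for DR4, ER6 and IR0 and none for the others. Counts were read beside those over all genes or TRBS, without a test. The search and the rule were tested on simulated data. The alternatives were other distances, positions, attributions, scores and mismatch limits. The genes and lists were chosen with earlier results of these data known. The genes named were the 9, those with a TSS nearer to one of their TRBS, and from each list up to 3 with the highest fold enrichment and those without a TRBS. *Penk*, *Tac1* and the neighbours were named after their values were seen. The values of 1 gene of these lists are not reported here. *Sts*, fixed as a conjugating enzyme, is not in the annotation used. The tools were pysam 0.24.0, pandas 2.3.3, matplotlib 3.10.9, scipy 1.17.1 and numpy 2.4.6, run in Python 3.11.15.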

Additional observations from a re-analysis of the deposited data

How the results depend on the processing

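Of 63 values under alternatives, 44 were equal to the reported value or, for a count, within 1.5 times of it, and 19 moved further. A score of at least 200 kept 2 of the 9 genes (*Dio3* and *Slc7a8*), 4 TRBS and 0 promoters. This alternative removes TRBS by construction, and 30.6% of protein-coding genes had a TRBS under it. Chosen after seeing the data, the same score was applied to the other lists, which were not tested against that share. It kept 4 of 9 genes for partners and turnover and 1 of 11 other transporters and blood carriers. It kept 1 of 3 conjugating enzymes and 0 of 10 genes of hormone synthesis in the thyroid gland. Among markers it kept 3 of 6 for striatal projection neurons and 2 of 3 for GABAergic neurons. The counts were 0 of 4 for astrocytes, 0 of 4 for brain endothelium and 1 of 4 for choroid plexus. Within 10 kb there were 5 TRBS, 1 of them with DR4, and the highest fold enrichment at *Slc7a8* was 9.26, as with attribution to the nearest TSS only. Within 50 kb, 4 TRBS had DR4 and the highest value at *Ttr* was 11.5. No value could be given for *Slc16a10*, *Slc7a5* and *Ttr* at the stricter score or for *Ttr* within 10 kb, where no TRBS was left. With at most 1 mismatch 0 of the 9 TRBS had DR4, and with at most 3 mismatches 6 had it. The shares of all TRBS at these limits were not determined, so neither count can be set against a background. In the whole TRBS, an alternative chosen after seeing the data, the half-site was found in 4, AP-1 in 3 and the GC box in 3. The shares given above for these motifs refer to 100 bp on either side of the summit and were not determined for whole TRBS. The median length was 548 bp for the 9 and 422 bp over all TRBS. No paired analysis was possible because the peak list has no values for single libraries, and for the same reason no library could be left out. The threshold of the list limits what can be seen at the genes without a TRBS.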

Other observations

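The single-mismatch element AGGTCAgaagAGGGCA occurred both in *Slc16a10* and upstream of *Slc7a8*. Among the 5852 distinct sequences of the genome that match DR4 with 1 mismatch, it had the most copies, 1253, against a median of 2. Of these copies 11, or 0.878%, lay in a TRBS, against 4.23% of the other 19884 matches with 1 mismatch. All 16 bases were masked as repeats in the reference sequence at both genes. The remaining 4 elements with 1 mismatch in the windows of the 9 genes had between 4 and 11 identical copies in the genome, none of them in a TRBS, and no masked bases. These counts include the 4 elements themselves, and the copies are too few to differ from the share above. These comparisons were made after the elements had been seen.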
